A study of Bos taurus with 34 samples.

Results

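The miR-26 family was measured here through 2 mature bovine miRNAs, bta-miR-26a and bta-miR-26b (miR-26a and miR-26b below), which are 2 of the 800 miRNA names in the count files. The rows were chosen by name after their counts in these libraries had been seen, and 1 day-25 file was left out because its counts were a copy of another's. The libraries hold small RNA from the cell-free fraction of blood of 17 dairy cows. By endometrial cytology and biopsy 6 were healthy, and 11 had subclinical endometritis (SCE), in which the lining of the uterus is inflamed but the cow shows no sign of it. Each cow was sampled at 2 times after calving, which the sample labels call day 25 and day 45 and the series' design text 21 and 44 days postpartum. No agent or genotype distinguishes the groups, and the labels give no breed or age. The material is serum in the labels but plasma in the design text. For healthy cow 3 both days' files held the same values, and the day-25 one was left out, so 33 libraries were used: 5 of healthy cows at day 25, 6 of healthy cows at day 45, and 11 of SCE cows at each day.

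miR-26 is a conserved family whose hairpins lie in introns of the CTDSP genes, which encode small phosphatases that act on the tail of RNA polymerase II. It is known as a brake on proliferation, in part by repressing EZH2, the methyltransferase of Polycomb, and its tailing with uridine by TUT4 was reported to weaken its repression of the cytokine IL6. In the RefSeq gene table for the assembly ARS-UCD2.0, MIR26A-1 lies within the span of CTDSPL, MIR26A-2 within that of CTDSP2 and MIR26B within that of CTDSP1. Both MIR26A hairpins give miR-26a, so its row cannot be assigned to 1 of them. The table also lists MIR26C, with the same start and end as MIR26A-1.

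Library totals ranged from 678389 to 28872153 counts, with both libraries of SCE cow 10 the shallowest at day 25 and at day 45. Levels below are CPM, counts scaled to a common library size, after TMM normalization, a scaling that sets most miRNAs level between libraries. Healthy libraries have title numbers 13 to 24 and SCE libraries 31 to 52, so any order of preparation that followed them and status cannot be told apart. In cell-free blood, fewer releasing cells and less RNA per cell cannot be told apart.

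The row of miR-26c followed that of miR-26a in a fixed proportion. Each of the 33 libraries held 2 counts of miR-26a for each of miR-26c, with the ratio between 1.9999 and 2.0003, and the count of miR-26a minus 2 counts for each count of miR-26c lay between -1 and 18. In healthy cow 1 at day 25, for example, the rows held 17124 and 8562 counts. Among the 97 names with at least 100 counts in every library, no other pair stood at this ratio within a log2 tolerance of 0.002. In 3 pairs of these names the counts were equal within that tolerance in every library. How reads with several matches were counted is not stated, and whether each miR-26a read was counted at both of its hairpins was not tested. A constant factor on miR-26a enters comparisons between groups only through library scaling, but it sets the level of miR-26a relative to miR-26b. miR-26c was not treated as an independent measurement.

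miR-26a was among the abundant miRNAs of these libraries, and its level spanned a wide range. By mean CPM it was number 14 of 406 miRNAs and miR-26b number 32, with means over all libraries of 12187 ± 9342 and 3052 ± 2322 CPM (SD, n = 33). The highest level was 16.0 times the lowest for miR-26a and 21.4 times for miR-26b. At the low end, SCE cow 10 at day 45 still gave 681 counts of miR-26b, so counting error was small beside the spread between cows.

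At day 25, miR-26a stood above its level in every healthy cow in 8 of 11 SCE cows, a difference that did not pass the test over all miRNAs. In healthy cows it stood at 2335 CPM in cow 1, 5051 in cow 2, 8711 in cow 4, 9565 in cow 5 and 8028 in cow 6. In the 11 SCE cows the lowest value was 3116 CPM, the median 12572 and the highest 37430. Of the SCE cows 8 of 11 exceeded the highest healthy cow and none fell under the lowest, so the others overlapped the healthy range. The means were 6738 ± 2991 CPM (SD, n = 5) and 17800 ± 12385 CPM (SD, n = 11). The log2 fold change of SCE against healthy cows was 1.37 with SE 0.57, a 2.59-fold difference, and the 95% interval of the log2 value ran from 0.19 to 2.56. It did not pass adjustment over the 372 miRNAs tested (edgeR adjusted p = 0.186, unadjusted p = 0.025). DESeq2 gave 1.30 (DESeq2 adjusted p = 0.111). Of the 2 members neither was called by edgeR, where 0.269% of all miRNAs tested were called, nor by DESeq2, where 3.12% were. An unadjusted p under 0.05 was common at this day, reached by 75 of 372 miRNAs or 20.2%.

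miR-26b was less separated at day 25, and its difference depended most on 1 healthy cow. Healthy cows stood at 515 CPM in cow 1, 997 in cow 2, 7257 in cow 4, 2033 in cow 5 and 2149 in cow 6. SCE cows ranged from 733 CPM over a median of 3404 to 11010. Healthy cow 4 lay above all SCE cows but 1, while the other healthy cows lay below the SCE median. The log2 fold change was 0.57 with SE 0.61 (edgeR adjusted p = 0.608) and became 1.44 without healthy cow 4 (edgeR adjusted p = 0.193). Without that cow the value of miR-26a was 1.505 (edgeR adjusted p = 0.193). With each cow left out in turn, miR-26a ranged from 1.20 to 1.54. miR-26b ranged from 0.27, without healthy cow 1, to 1.44. In all, 8 of 11 SCE cows lay above the healthy median for miR-26b.

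**Figure D1:**
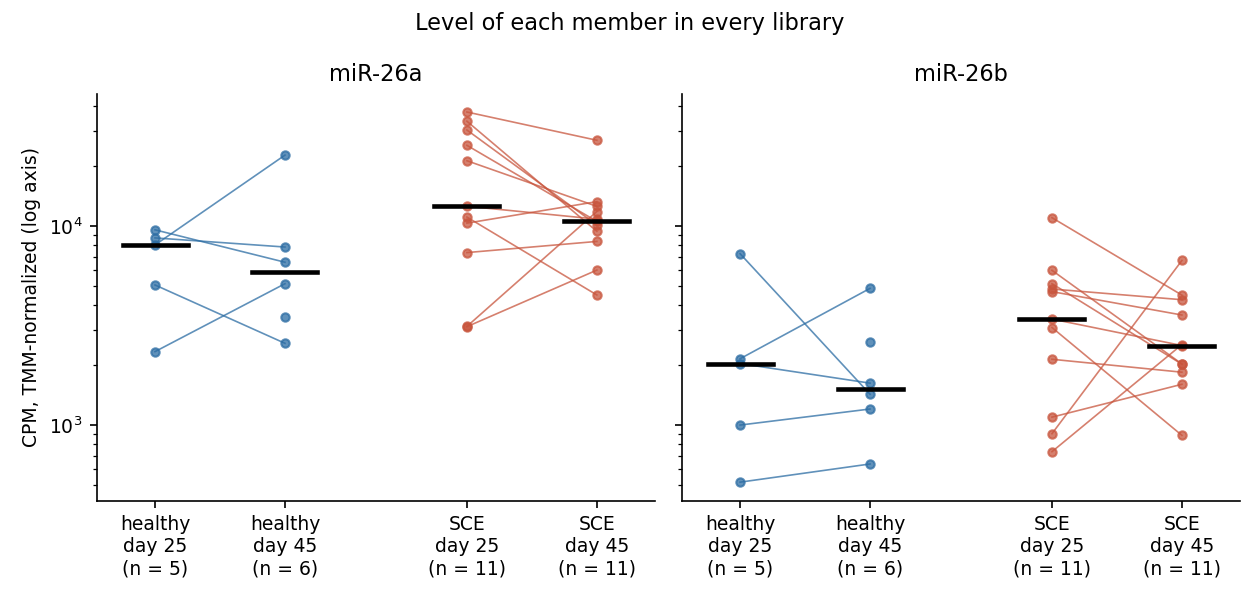
TMM-normalized CPM of miR-26a (left) and miR-26b (right) in each library on a log axis, by status and day. Points are libraries, lines join the 2 libraries of a cow and black bars are medians; at day 25, 8 of 11 SCE cows lie above every healthy cow for miR-26a, while healthy cow 4 is high for miR-26b at 7257 CPM.

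At day 45 the difference in miR-26a was smaller and the groups overlapped more. Healthy cows ranged from 2570 CPM over a median of 5849 to 22723, and SCE cows from 4498 over a median of 10546 to 26984. Of the SCE cows 10 of 11 lay above the healthy median, but only 1 lay above the highest healthy cow, which was cow 6. The log2 fold change was 0.54 with SE 0.46 (edgeR adjusted p = 0.690), and it was 1.20 without healthy cow 6 (edgeR adjusted p = 0.159). That was the highest value with a single cow left out, and the lowest was 0.32, without SCE cow 16.

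miR-26b showed a difference of like size at day 45. It ranged from 636 CPM over a median of 1523 to 4856 in healthy cows and from 885 over a median of 2505 to 6709 in SCE cows, again with healthy cow 6 the highest of its group. The log2 fold change was 0.55 with SE 0.46 (edgeR adjusted p = 0.690) and 1.02 without healthy cow 6 (edgeR adjusted p = 0.283). The lowest value with a single cow left out was 0.51, without healthy cow 1. At this day edgeR called 0 of 382 miRNAs (0%), while 39 (10.2%) had an unadjusted p under 0.05, and DESeq2 called 1 (0.134%). DESeq2 called neither member.

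With the counts of each cow summed over both days, miR-26a differed by 0.97 on the log2 scale (SE 0.43; edgeR adjusted p = 0.262), which is 1.96-fold with a 95% interval from 1.05 to 3.63. miR-26b differed by 0.66 (SE 0.40; edgeR adjusted p = 0.365), or 1.58-fold with an interval from 0.886 to 2.80. Neither was called, where edgeR called 0.239% of 418 miRNAs and DESeq2 2.21% of 498, and 16.5% had an unadjusted p under 0.05 by edgeR. Without healthy cow 6 the values were 1.45 for miR-26a (edgeR adjusted p = 0.075) and 0.94 for miR-26b (edgeR adjusted p = 0.165). Those were the highest with a single cow left out. The lowest were 0.80 for miR-26a, without SCE cow 16, and 0.50 for miR-26b, without healthy cow 1. In all 3 comparisons of status both members had positive values, although the comparisons share cows.

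**Figure D2:**
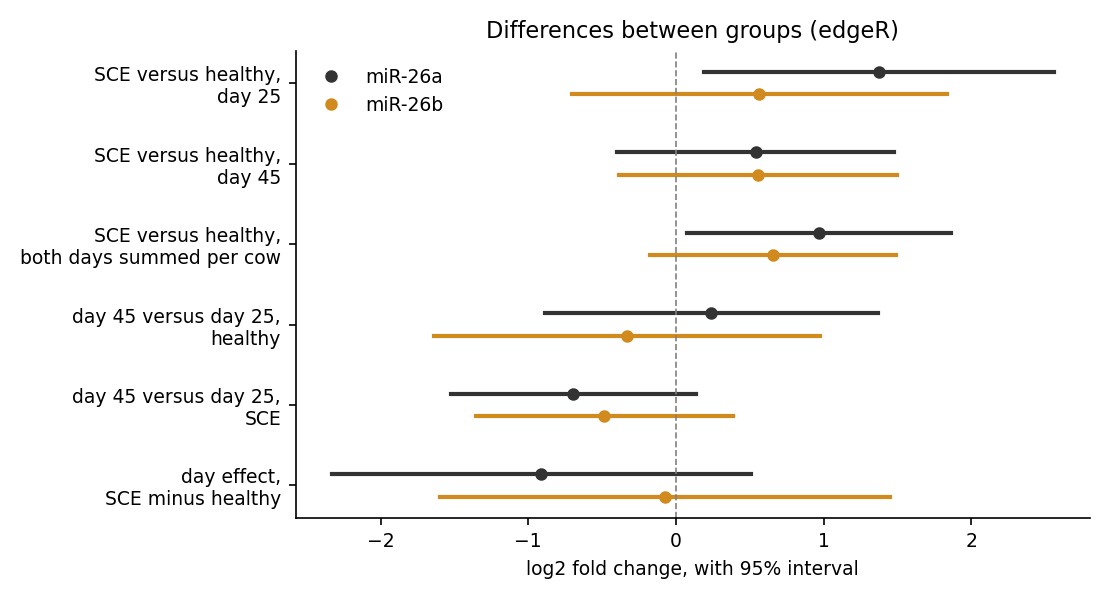
Log2 fold changes of miR-26a and miR-26b from edgeR in the 6 comparisons, with 95% intervals as lines. The interval of miR-26a lies above 0 for SCE against healthy cows at day 25 (1.37) and with both days summed (0.97), before adjustment over all miRNAs; all other intervals cross 0.

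The members were set beside 2 measures of red blood cell RNA. The correlations varied in size by member, measure and day, and they were not tested against each other. miR-486 and miR-451 are abundant in red blood cells while miR-23a is not, so their log2 ratios to miR-23a serve as a measure of red cell RNA in serum or plasma. miR-486 alone took 3.95 to 81.1% of a library's counts, and the part of shared scaling in these correlations was not tested. At day 25 the libraries were split at the widest gap in the miR-486/miR-23a ratio that left 6 or more libraries on each side. The ratio lay between 3.77 and 5.57 in 6 libraries, all of SCE cows. It lay between 7.68 and 12.4 in the other 10, of 5 healthy and 5 SCE cows. The upper range itself held a gap of like width, from 9.96 to 12.1, which was not used. miR-26a was between 12572 and 37430 CPM in the first 6. Among the other 10 it was between 2335 and 9565 CPM in healthy cows (median 8028) and between 3116 and 11092 CPM in SCE cows (median 7350). The 3 SCE cows that overlapped the healthy range for miR-26a were thus all in the upper range of the ratio. These ranges were set from the data and are not groups of the study.

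At day 25 miR-26b divided in this way in all libraries but 1, that of healthy cow 4. In the 6 SCE libraries of low ratio it was between 3404 and 11010 CPM. Among the other 10 it was between 515 and 7257 CPM in healthy cows (median 2033) and between 733 and 3086 CPM in SCE cows (median 1093). Healthy cow 4, at 7257 CPM, lay above 5 of the 6 libraries of low ratio. The 5 SCE libraries of high ratio and the other healthy libraries, at 2149 CPM or less, lay below all 6. Within the 6 libraries of low ratio, miR-26a and the miR-486/miR-23a ratio were correlated at r = 0.16 and rho = -0.20 (exact permutation p = 0.807 and 0.714). Within the 10 libraries of high ratio r was -0.70 and rho -0.45 (permutation p = 0.024 and 0.192, adjusted over 20 relations 0.067 and 0.349). That r became -0.08 without the 2 libraries farthest from the median ratio and rests on them. For miR-26b r was -0.57 and rho -0.26 within the 6 (exact permutation p = 0.274 and 0.658). Within the 10 they were -0.60 and -0.53 (permutation p = 0.071 and 0.124, adjusted 0.157 and 0.248), and r was -0.09 without the 2 farthest. With the ratio as a covariate in the status comparison at day 25, the log2 fold change of miR-26a was -0.15 (edgeR adjusted p = 0.873) and that of miR-26b was -0.84 (edgeR adjusted p = 0.407), both opposite in sign to the values without it. All 6 libraries of low ratio at that day were of SCE cows, so this fit cannot cleanly separate the ratio from status. With both days summed the values with the covariate were 0.05 (edgeR adjusted p = 0.989) and 0.18 (edgeR adjusted p = 0.989). At day 45 the differences kept their sign with the covariate, at 0.21 for miR-26a and 0.41 for miR-26b (edgeR adjusted p = 0.992 for each).

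The miR-451/miR-23a ratio was negatively correlated with both members at day 25 and with miR-26b at day 45. At day 25, over 16 cows, it was correlated with miR-26b at r = -0.85 and rho = -0.89 (permutation p = 5e-05 and 2e-05, adjusted 0.001 and 0.0004), and r was -0.87 within the 11 SCE cows and -0.85 without the 2 farthest libraries. With miR-26a it was correlated at r = -0.73 and rho = -0.66 (permutation p = 0.0016 and 0.0060, adjusted 0.0105 and 0.0301), and r was -0.83 within SCE cows and -0.70 without the 2 farthest. At day 45, over 17 cows, r was -0.60 and rho -0.66 for miR-26b (permutation p = 0.0101 and 0.00509, adjusted 0.0337 and 0.0301). Within status r was then -0.45 in the 11 SCE and -0.77 in the 6 healthy cows, and it was -0.74 without the 2 farthest libraries. For miR-26a the day-45 values were r = -0.07 and rho = -0.13 (permutation p = 0.786 and 0.627, adjusted 0.888 and 0.879). Whether the relation of miR-451 differed between the members was not tested. With this ratio as a covariate, the status difference of miR-26a at day 25 was 0.72 (edgeR adjusted p = 0.382) and that of miR-26b was 0.19 (edgeR adjusted p = 0.783). At day 45 the values were 0.53 (edgeR adjusted p = 0.716) and 0.32 (edgeR adjusted p = 0.808).

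At day 45, over all cows, miR-26a was lower where the miR-486/miR-23a ratio was high. Over 17 cows r was -0.64 and rho -0.60 (permutation p = 0.00522 and 0.0117, adjusted 0.0209 and 0.0468), with r of -0.89 in the 6 healthy and -0.25 in the 11 SCE cows. The r was thus stronger in the 6 healthy than in the 11 SCE cows, and the difference between them was not tested. Healthy cow 6 had the lowest ratio of its group (6.51) and the highest miR-26a (22723 CPM). The healthy r without that cow was not computed. Over all cows r was -0.73 without the 2 farthest libraries. For miR-26b r was -0.37 and rho -0.42 (permutation p = 0.139 and 0.090, adjusted 0.253 and 0.225). Its r was -0.75 in healthy and 0.09 in SCE cows, and -0.53 without the 2 farthest libraries. miR-26a was also higher at day 45 where more miRNAs were detected, with r = 0.65 and rho = 0.59 (permutation p = 0.0051 and 0.0143, adjusted 0.0209 and 0.0477). Within status that r was 0.63 in SCE and 0.76 in healthy cows, and it was 0.48 without the 2 farthest libraries. The part of this in the status comparison was not tested.

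**Figure D3:**
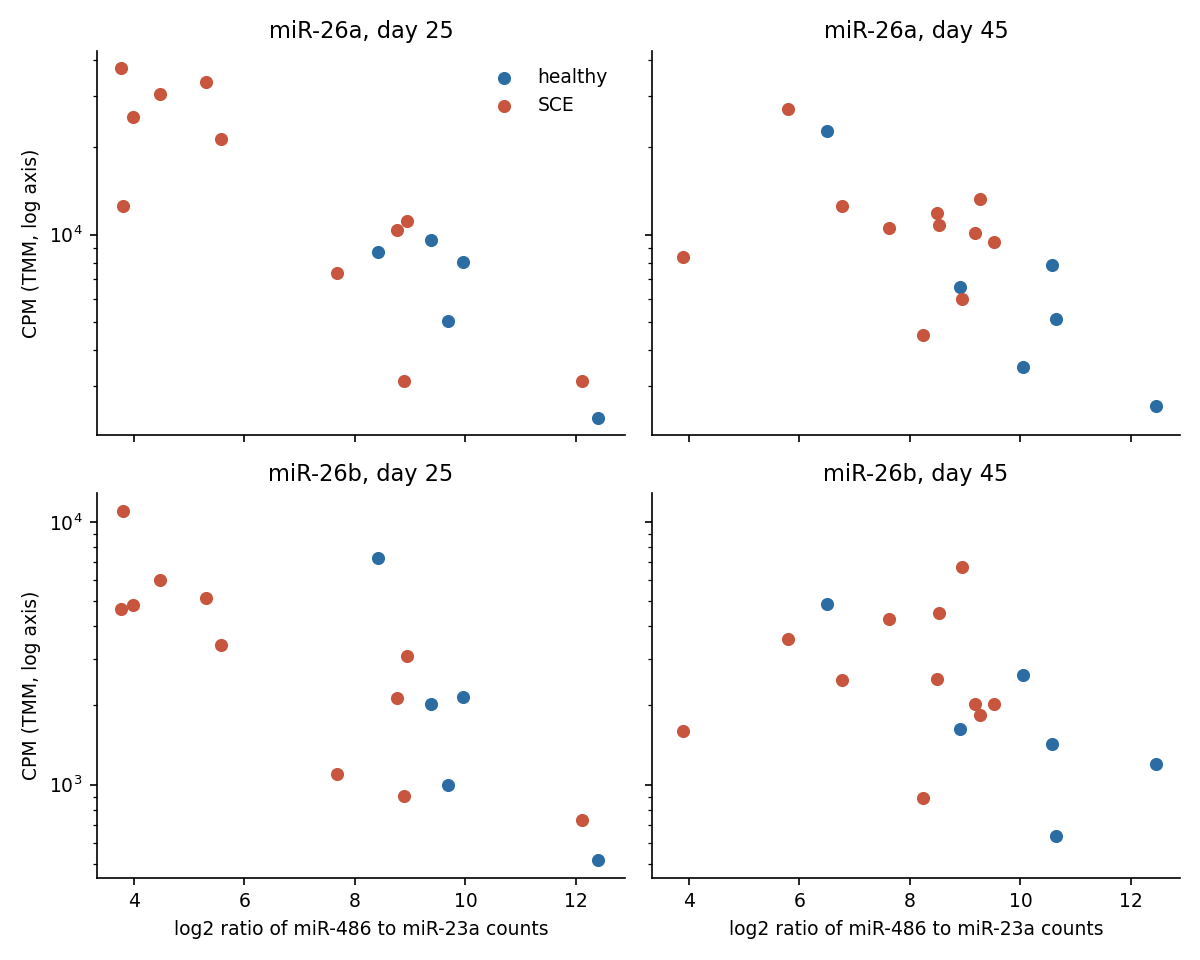
TMM-normalized CPM of miR-26a (top) and miR-26b (bottom) on a log axis against the log2 ratio of miR-486 to miR-23a counts, at day 25 (left) and day 45 (right), 1 point per cow. At day 25 the 6 SCE libraries with a ratio of 5.57 or less hold the highest miR-26a levels, and the remaining SCE and healthy libraries share a range.

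Between the days, neither member was called in either status. The fits between days, and of their difference between statuses, treated libraries as independent although the same cows gave both days. Values with the cow as a block stand in the closing section. In SCE cows miR-26a was lower at day 45 in 7 of 11 cows and miR-26b in 8 of 11. The largest falls in miR-26a were in cow 15, from 33649 to 9400 CPM, and in cow 12, from 30387 to 10114 CPM, and the largest rise was in cow 7, from 3126 to 11827 CPM. miR-26b in those cows went from 5130 to 2018, from 5985 to 2023 and from 733 to 2533 CPM, and the members moved in the same direction in 10 of 11 SCE cows. The widest change in miR-26b as a fold, 7.43-fold, was in cow 8, from 903 to 6709 CPM, beside a miR-26a of 3116 and 6001 CPM. The log2 fold change of day 45 against day 25 was -0.70 with SE 0.41 for miR-26a (edgeR adjusted p = 0.705) and -0.49 with SE 0.43 for miR-26b (edgeR adjusted p = 0.834). edgeR called 0 of 346 miRNAs (0%), while 14 (4.05%) had an unadjusted p under 0.05, and DESeq2 called 0.

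In healthy cows the values went both ways. Over the 5 cows with both days, miR-26a was higher at day 45 in 2 and lower in 3, and miR-26b was higher in 3 and lower in 2. Cow 6 rose in both members, from 8028 to 22723 CPM and from 2149 to 4856 CPM, while miR-26b of cow 4 went from 7257 to 1426 CPM beside a miR-26a of 8711 and 7838 CPM. The log2 fold changes were 0.24 with SE 0.54 for miR-26a and -0.33 with SE 0.62 for miR-26b (edgeR adjusted p = 0.99988 for both). Single cows set these signs. Without cow 6 miR-26a was at -0.42, and without cow 4 miR-26b was at 0.75. edgeR called 0 of 345 miRNAs (0%), while 10 (2.9%) had an unadjusted p under 0.05, and DESeq2 called 0.

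The change between days was not shown to differ between statuses. The SCE minus healthy difference of the log2 change was -0.91 with SE 0.70 for miR-26a, with a 95% interval from -2.33 to 0.51, and -0.07 with SE 0.75 for miR-26b, with an interval from -1.60 to 1.45 (edgeR adjusted p = 0.988 for each). edgeR called 0 of 406 miRNAs (0%) in this comparison, while 7 (1.72%) had an unadjusted p under 0.05, and DESeq2 called 0.

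The proportion of the members varied between libraries, and in a few they came near to equal. The log2 ratio of miR-26a to miR-26b counts does not depend on library size. Its median over the 33 libraries was 2.23, which corresponds to 21.3 counts of miR-26b for every 100 of miR-26a. In 4 libraries the members came near to equal, with 111.8 counts of miR-26b per 100 of miR-26a in SCE cow 8 at day 45, 87.6 in SCE cow 14 at day 25, 83.3 in healthy cow 4 at day 25 and 74.5 in healthy cow 3 at day 45. The next library, healthy cow 2 at day 45, stood at 46.7, and the lowest values were 12.4 in healthy cow 1 at day 45 and 12.5 in SCE cow 16 at day 25. The 4 libraries come from 4 cows, 2 of each status, and their totals of 3529740 to 14207289 counts lie inside the range of the others. They held 366 to 470 detected miRNAs, where the 33 libraries held 348 to 646, and the part of this in the ratio was not tested. With miR-26a counted at the level of the miR-26c row, miR-26b would exceed it in these 4 libraries and in no other.

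The ratio did not separate status or day. At day 25 its mean was 1.78 ± 0.87 (SD, n = 5) for healthy and 2.19 ± 0.76 (SD, n = 11) for SCE cows, a difference of 0.40 (two-sided exact permutation p = 0.372, adjusted over 6 ratio tests 0.744). That difference was 0.02 without healthy cow 4. At day 45 the means were 1.87 ± 0.95 (SD, n = 6) and 2.001 ± 0.88 (SD, n = 11), a difference of 0.13 (two-sided exact permutation p = 0.788, adjusted 0.788), which was -0.16 without healthy cow 3 and -0.03 without healthy cow 2. Averaged over the days of each cow, the difference was 0.38 (two-sided exact permutation p = 0.325, adjusted 0.744), and it was 0.12 without healthy cow 3. From day 25 to day 45 the ratio changed by a mean of 0.38 in the 5 healthy cows (exact sign-flip permutation p = 0.625, adjusted 0.75, where 0.0625 is the smallest possible) and by -0.19 in the 11 SCE cows (exact sign-flip permutation p = 0.4961, adjusted 0.7441). The change in healthy cows was -0.075 without cow 4, and that in SCE cows was -0.01 without cow 8. The difference of these changes was -0.56 (two-sided exact permutation p = 0.305, adjusted 0.744) and -0.11 without healthy cow 4.

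**Figure D4:**
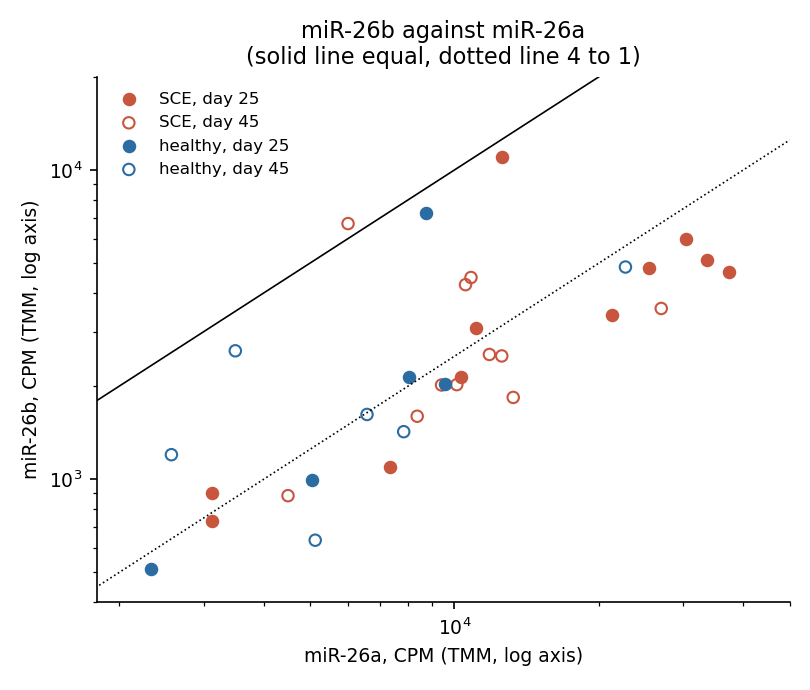
miR-26b against miR-26a in each of the 33 libraries, as TMM-normalized CPM on log axes, filled for day 25 and open for day 45. The solid line marks equal levels and the dotted line 4 of miR-26a to 1 of miR-26b; 4 libraries, 2 of healthy and 2 of SCE cows, lie near or above the solid line.

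Across libraries the members were not each other's nearest pattern. Over the 33 libraries log2 CPM of miR-26a and miR-26b were correlated at r = 0.71, a value given as a description because most cows gave 2 libraries. At day 25 alone, with 1 library per cow, r was 0.81 and rho 0.80 (permutation p = 0.00013 and 0.00030, adjusted over 20 relations 0.0013 and 0.003), and r was 0.82 within SCE cows and 0.76 without the 2 farthest libraries. At day 45 r was 0.52 and rho 0.51 (permutation p = 0.0349 and 0.0359, adjusted 0.0872 and 0.103), with r of 0.29 within SCE and 0.60 within healthy cows.

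The patterns most like miR-26a, by Pearson correlation over the 33 libraries among 405 other miRNAs, were miR-26c, whose row is in fixed proportion, and then miR-374b at 0.89, miR-181c at 0.89 and miR-652 at 0.89. miR-26b was number 24 in that order. The patterns most like miR-26b were miR-155, an inflammation-linked miRNA of activated leukocytes, at 0.90, miR-454 at 0.86, miR-28 at 0.86 and miR-181d at 0.84, with miR-26a number 22. These orders differed between the days taken alone. At day 45 miR-26b was number 88 for miR-26a and miR-26a number 52 for miR-26b, against 21 and 20 at day 25. miR-374b was number 19 for miR-26a at day 45 (r = 0.78), and miR-181d was number 26 for miR-26b at day 25 (r = 0.79). The median r over all miRNAs and the 33 libraries was 0.15 with miR-26a and 0.00052 with miR-26b. The lowest r with miR-26a were those of miR-25 (-0.83) and miR-486 (-0.79), both rich in red blood cells, and of miR-11971 (-0.75), and those with miR-26b were of miR-10225a (-0.86), miR-2457 (-0.84) and miR-125b (-0.83). All these points share library and scaling. Of the neighbours of miR-26a, miR-374b had a log2 fold change of 1.66 in SCE against healthy cows at day 25 and miR-652 at 1.02 (edgeR adjusted p = 0.185 and 0.186). Of those of miR-26b, miR-155 stood at -0.10 and miR-28 at 1.03 (edgeR adjusted p = 0.916 and 0.251).

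Other miRNAs that act on the targets of miR-26 gave no call in any of the 6 comparisons by edgeR. Of 3 tested regulators of EZH2, 1 was higher and 2 lower in SCE cows at day 25, and 2 were higher and 1 lower at day 45. miR-101 stood at a log2 fold change of -1.06 at day 25 and -0.19 at day 45, and miR-138 at 1.35 and 1.47. The other members of that list, miR-124a and miR-124b, were too scarce to test, so the list speaks for 3 of 5. Of 3 regulators of IL6, 2 were higher and 1 lower at each day, with let-7a-5p at -0.94 and -0.14 and miR-142-3p at 0.24 and 0.68. Of the miRNAs linked to fat cells, in which miR-26 was also reported to act, 5 of 11 were higher at day 25 and 5 of 12 at day 45, with miR-27b at 0.32 and -0.45 and miR-143 at -0.95 and -0.18. The medians of these lists at day 25 and day 45 were -0.05 and 0.12 for EZH2, 0.24 and 0.68 for IL6 and -0.59 and -0.10 for fat cells. Over all miRNAs the medians were -0.05 and 0.11, and 47.9% were higher at day 25 and 57.1% at day 45.

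The marker lists of cells that release RNA into blood were also without a call by edgeR. Of 9 tested red blood cell miRNAs, 2 were higher and 7 lower in SCE cows at each day, with medians of -0.46 and -0.28 on the log2 scale beside those over all miRNAs. miR-486 stood at -1.54 and -1.37 and miR-92a at -0.83 and -0.03. The 10 members of this list together took a median of 48.4% of counts in healthy and 14.2% in SCE cows at day 25 (ranges 26.3 to 83.9% and 5.85 to 80.9%), and of 50.3 and 39.8% at day 45 (ranges 17.2 to 74.7% and 6.18 to 58.3%). No member of any marker list was at 0 in a whole group. The part of red blood cell RNA in the miR-26 differences was not tested. The covariate values given above cannot cleanly separate it from status at day 25, where all 6 libraries of low miR-486/miR-23a ratio were of SCE cows.

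The leukocyte list had 5 of 7 higher at day 25 and 6 of 7 at day 45 (medians 0.24 and 0.59), with miR-142-5p at 0.19 and -0.06 and miR-181a at -0.32 and 0.01, and took a median of 1.40% of counts in healthy and 4.74% in SCE cows at day 25 (ranges 0.807 to 5.10% and 0.827 to 6.71%), and of 1.69 and 3.78% at day 45 (ranges 1.11 to 4.82% and 2.07 to 6.35%). The platelet list had 3 of 6 higher and then 2 of 6 (medians -0.10 and -0.08), with miR-191 at -1.02 and -0.14 and miR-126-5p at 0.31 and -0.51. The liver list had 1 of 5 higher and then 3 of 5 (medians -0.61 and 0.19), with miR-192 at -0.97 and -0.89 and miR-148a at -0.76 and -0.45. Shares are parts of a whole, so those of the lists are not independent of each other. At day 25 the median share of the platelet list was 8.10% in healthy and 13.8% in SCE cows. It was 3.08 and 6.09% for the fat cell list and 4.58 and 3.47% for the liver list. At day 45 these shares were 10.3 and 12.7%, 4.40 and 4.10%, and 4.87 and 3.31%. The part of leukocyte RNA in the miR-26 differences was not tested.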

How the data were processed

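The authors deposited 1 file per library with raw read counts per mature miRNA name, whole numbers whose totals differ. The submitters' processing notes name bcl2fastq 2.17.1.14, DESeq2 and the build UMD3.1. The aligner, the counting rule and the miRNA annotation are not stated there or in the file headers. Per the labels' protocols, libraries were PCR-amplified and no molecular identifiers are named. Mature sequences were not used here.

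Rows were joined by name, 800 per library, 6 without a count. Tests used edgeR 4.0.16 in R 4.3.3 (quasi-likelihood, TMM, default low-count filter, Benjamini-Hochberg over all miRNAs tested, threshold 0.05, two-sided), with DESeq2 1.42.0 as an alternative. SE is the absolute log2 fold change divided by the square root of F. Log2 CPM used a prior count of 2. Ratio tests were exact permutations over cows. Correlations used 100000 permutations, or all orders at 6 libraries. Fits were tested on simulated counts. Copies aside, libraries of a group come from separate cows.

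The animal number pairs the days, since the same cow gave both. For the 16 cows with both days, the log2 CPM deviations of the 2 libraries had a median correlation of 0.25, above 0.1 in 11. The main fits had no block.

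The members, lists and tests were chosen with earlier results of these data known. Named miRNAs are the members, miR-26c, the 4 nearest patterns per member and the 2 most abundant of each list (EZH2 regulators, IL6 regulators, fat cell, red blood cell, platelet, leukocyte, liver). The lowest correlations, and in the closing section the miRNAs that follow the ratio, were added after their values were seen. Seed sharing with other miRNAs was not analysed here.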

Additional observations from a re-analysis of the deposited data

Results flagged for a closer look

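Of 8 sets of values in healthy cows that were checked for a sample far from the rest, 3 held one. Chance flags about 1 in 20 of normally distributed sets. CPM was checked without logs, and the rate for such values was not tested. At day 25, miR-26b in healthy cow 4 was 7257 CPM, where the next of the 5 cows was at 2149 CPM. The log2 ratio of miR-26a to miR-26b in the same library was 0.26, where the next was 1.90. This ratio contains miR-26b, so these flags are not independent. At day 45, miR-26a in healthy cow 6 was 22723 CPM, where the next of the 6 cows was at 7838 CPM. The status differences without these cows stand in the report. The SCE groups of 11 were too large for this check.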

How the results depend on the processing

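No alternative brought either member or their ratio past an adjusted p of 0.05. Of 338 alternative values of 19 results, 321 kept their direction and 17 reversed. With a covariate for miR-486 over miR-23a, the day-25 status difference was -0.15 for miR-26a and -0.84 for miR-26b. The difference of the day effects for miR-26b, at -0.07, became 0.11 with DESeq2 size factors and 0.11 with DESeq2. When each cow was left out in turn, it ranged from -1.04 to 0.44. Likewise, the healthy change between days ranged from -0.42 to 0.43 for miR-26a and from -0.90 to 0.75 for miR-26b. The ratio ranged from -0.16 to 0.36 for status at day 45 and from -0.075 to 0.78 for the healthy change between days. With the cow as a block, the day change was 0.09 for miR-26a and -0.22 for miR-26b in healthy cows, and -0.45 and -0.33 in SCE cows. The difference of the day effects was then -0.50 and -0.06, and the block changed no call. Counting miR-26a once and leaving out miR-26c, changed together and added after seeing the data, moved the day-45 status difference of miR-26a from 0.54 to 0.71. DESeq2 size factors moved the median of all miRNAs from -0.11 to 0.06 for the SCE day change, from 0.01 to -0.10 for the healthy one and from 0.01 to 0.18 for their difference. Calls over all miRNAs at day 25 were 1 by edgeR, 14 by DESeq2, 6 without the low-count filter, and 4 with DESeq2 size factors or with miR-486 left out. With 1 cow left out they went from 0 (10 of 16 cows) to 6 higher and 1 lower (without SCE cow 7). The causes were not tested.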

Other observations

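The 4 libraries in which miR-26b came near to miR-26a also differed from the rest in other miRNAs, which were picked after the values were seen and are given without a test. Over the 33 libraries the log2 ratio of miR-26a to miR-26b was correlated at r = -0.77 with let-7g, at -0.74 with miR-21-5p, which is raised in many inflammatory states, at -0.73 with miR-545-5p, at -0.73 with miR-221 and at -0.72 with miR-301a. let-7g had a median of 2928 CPM in the 4 libraries (range 1731 to 5435) and of 1166 CPM in the other 29 (range 566 to 2550). miR-21-5p had a median of 94596 CPM in the 4 (range 20875 to 160402) and of 12051 CPM in the others (range 3626 to 65068). miR-221, which is abundant in vessel walls and blood cells, had a median of 7218 CPM in the 4 (range 4049 to 13604) and of 2140 CPM in the others (range 1188 to 5470). On the other side stood miR-30f at r = 0.73 and miR-425-5p at 0.72. miR-425-5p had a median of 348 CPM in the 4 libraries (range 248 to 714) and of 1039 CPM in the others (range 270 to 2072). The ranges overlap for each of these miRNAs, and the libraries come from both statuses and both days.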
